A study of Mus musculus with 12 samples.

Results

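The mouse gasdermin C cluster was described here from RNA-seq of the mucosa of ileum and colon, as 6 genes of the 53715 in the table of counts: the protein-coding copies Gsdmc, Gsdmc2, Gsdmc3 and Gsdmc4 and the pseudogenes Gsdmcl1 and Gsdmcl2. The rows were selected by their gene symbols in GENCODE M21. The family itself was chosen from the tissue and genotype values of these same libraries, so every level and difference of its members is given as a description with no p-value. Counts of members past the threshold of the fit stand only beside the share of all genes, as part of that description, and nothing is read from them. Tests are given for other genes. Of the 6 members, 5 had at least 1 count in some library and 4 passed the filter on low counts that 16558 genes passed: Gsdmc2, Gsdmc3, Gsdmc4 and Gsdmcl2.

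The libraries came from C57BL/6J mice that were 8 weeks old and male, with 3 libraries in each of 4 groups. The control mice are labelled Slc39a8-fl/fl, that is, with a floxed Slc39a8 allele and no Cre, whereas the study's methods describe its controls as a mixture that also holds wild-type and Villin-Cre mice. The Slc39a8-IEC KO mice are labelled Slc39a8-fl/fl:Villin-Cre, in which the villin promoter drives Cre recombinase in the intestinal epithelium, so the other cells of the mucosa keep the gene. Slc39a8 encodes a metal transporter that carries manganese. Each library held 16749138 to 27903083 expected counts, which are estimates of the number of reads per gene, and levels are given as CPM, counts per 1000000 counts of the scaled library. RNA was made from whole mucosa, in which fewer cells of a type and less RNA per cell cannot be told apart.

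Gasdermins are pore-forming proteins. A protease cuts the linker between the amino-terminal and carboxy-terminal domains, the amino-terminal part enters a membrane and assembles into a pore, and the cell may release cytokines or die by pyroptosis. The gasdermin C genes were duplicated in the mouse, and in the intestine they are known as epithelial genes that rise in type 2 immunity, such as in worm infection, through the receptor of interleukins 4 and 13 and the transcription factor Stat6.

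The 6 genes lay side by side over 136.3 kb of chromosome 15 (chr15:63775968-63912297, GRCm38). Gsdmc (63775968 to 63808759), Gsdmc2 (63824346 to 63845177), Gsdmc3 (63857724 to 63878558) and Gsdmc4 (63891264 to 63912297) are on the minus strand. The pseudogenes Gsdmcl1 (63847309 to 63855155) and Gsdmcl2 (63880707 to 63890512), both annotated as transcribed unprocessed pseudogenes, are on the plus strand between the copies. Gsdmcl1 begins 2131 bases from the 5′ end of Gsdmc2, and Gsdmcl2 begins 2148 bases from the 5′ end of Gsdmc3. A further pseudogene, Gsdmcl-ps (63914448 to 63925666), which is not a member, begins 2150 bases from the 5′ end of Gsdmc4. Each of the 3 copies Gsdmc2, Gsdmc3 and Gsdmc4 is thus arranged head to head with a pseudogene.

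**Figure D1:**
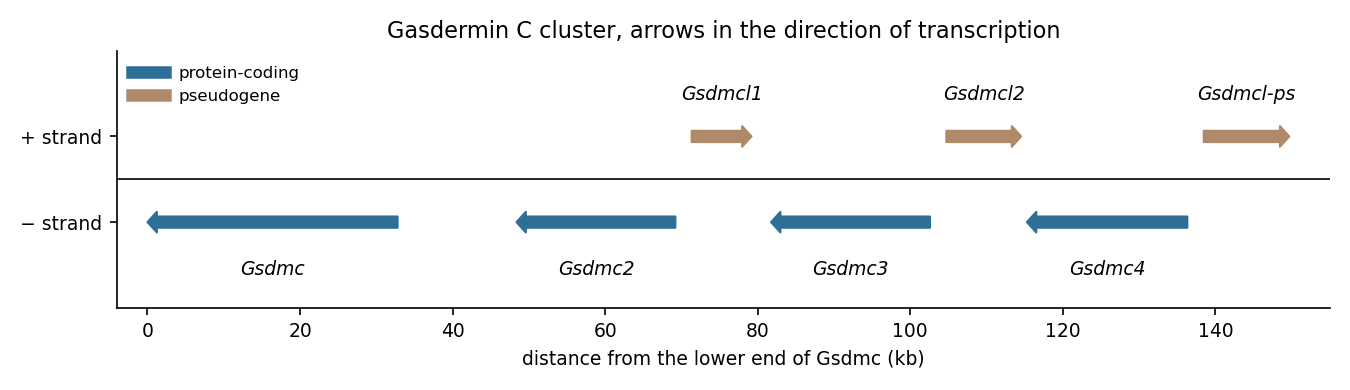
The gasdermin C cluster drawn to scale, with distance in kb from the lower end of Gsdmc on the horizontal axis and the strands above and below the line. Arrows point in the direction of transcription. The pseudogene 1700065I16Rik, between Gsdmc and Gsdmc2, is not drawn. The coding copies run one way, and 3 of the 4 have a pseudogene that starts 2131 to 2150 bases from their 5′ end and runs the other way.

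Gsdmc2, Gsdmc3 and Gsdmc4 each encode 480 residues and Gsdmc encodes 468. The coding sequences of Gsdmc2 and Gsdmc3 were 97.08% identical, with 42 of 1440 aligned bases different. Gsdmc4 was 93.51% identical to Gsdmc2 and 93.44% to Gsdmc3. Gsdmc was the most distant copy, at 86.11% to 86.41% identity to the others. The stretches of 60 coding bases with the fewest and the most differences among the 3 expressed copies are shown because they bear on how reads can be told apart. The stretch with the fewest differences is the start of the coding sequence, coding bases 1 to 60, which had 0 differences. It lies in exon 1 of Gsdmc2 (chr15:63835884-63835943), exon 2 of Gsdmc3 (chr15:63869238-63869297) and exon 2 of Gsdmc4 (chr15:63902871-63902930), in GRCm38 on the minus strand, and reads the same in all 3:
Gsdmc2, Gsdmc3 and Gsdmc4: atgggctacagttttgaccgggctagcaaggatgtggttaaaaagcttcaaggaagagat

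The stretch with the most differences held 15 variable positions, which are in capitals in the lines that follow. It begins at coding base 819 in Gsdmc2 and Gsdmc3 and at coding base 825 in Gsdmc4. It lies in exon 8 of Gsdmc2 (chr15:63826868-63826927), exon 9 of Gsdmc3 (chr15:63860298-63860357) and exon 9 of Gsdmc4 (chr15:63893815-63893874), on the minus strand of the same build.
Gsdmc2: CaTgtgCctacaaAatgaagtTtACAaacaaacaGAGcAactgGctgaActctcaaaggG
Gsdmc3: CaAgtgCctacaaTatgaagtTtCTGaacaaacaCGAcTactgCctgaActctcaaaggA
Gsdmc4: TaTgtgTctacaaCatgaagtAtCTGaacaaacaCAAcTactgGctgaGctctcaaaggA

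Reads of 150 bases, the length the study used, could be shared between copies only in part of each transcript. Of all 150-base windows in the annotated transcripts of Gsdmc3, 17.99% were found unchanged in another member. The share was 14.909% for Gsdmc2, 8.833% for Gsdmc4, 7.746% for Gsdmcl1, 2.953% for Gsdmc and 2.823% for Gsdmcl2. Gsdmc2 and Gsdmc3 shared the most, 299 windows, against 136 for Gsdmc3 and Gsdmc4 and 43 for Gsdmc2 and Gsdmc4. The pseudogenes shared 0 windows with any coding copy, and apart from Gsdmcl-ps, which shared 60 windows with Gsdmcl1 and 138 with Gsdmcl2, 0 windows of any member were found in a gene outside the cluster. The counts bore traces of the sharing. Gsdmc2 and Gsdmc3 had counts with a fraction in 12 of 12 libraries and Gsdmc4 in 11 of 12. Over all genes 93.675% of values were whole numbers, as were 84.058% of the values above 0. Added together, the counts of Gsdmc2, Gsdmc3 and Gsdmc4 were whole to within 0.05 in 12 of 12 libraries. The Gsdmcl2 counts were whole in every library. The division of reads among the 3 copies is therefore an estimate, and their sum is not affected by it.

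A pair of members was near or at 0 in every library. Gsdmc, the first copy of the row, had 0 counts in all 12 libraries. A count of 0 allows up to 3 counts, which is 0.117 to 0.200 CPM in single libraries and 0.0122 CPM over the 12 libraries together. The pseudogene Gsdmcl1 had 1 count in colon control replicate 3 and 0 in the other 11 libraries. Such limits cover counting error only. Apart from that 1 count of Gsdmcl1, the counts of the members thus came from 3 coding copies and 1 pseudogene.

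Gsdmc4 was the most abundant member per length. In colon control it had 167 ± 61.2 CPM per kb of exon (SD, n = 3), and Gsdmc2 had 122 ± 31.8. These neighbours in the order did not differ beyond their spread as group means. Gsdmc3 had 38.7 ± 10.3 CPM per kb and Gsdmcl2 had 2.80 ± 0.63, and neither overlapped with the member above it. In colon KO Gsdmc4 had 196 ± 10.2 and Gsdmc2 154 ± 19.4 CPM per kb, without overlap. In ileum Gsdmc4 had 72.7 ± 45.5 in control and 98.6 ± 55.0 in KO, against 33.3 ± 14.9 and 49.9 ± 26.9 for Gsdmc2, with overlapping ranges. Within libraries the order Gsdmc4, Gsdmc2, Gsdmc3, Gsdmcl2 was found in 12 of 12, with exon length taken over all transcripts and likewise with the longest transcript. For scale, Gsdmd, the gasdermin cut by inflammatory caspases, had 58.2 ± 7.14 CPM per kb in colon control and 135 ± 65.7 in ileum control. Gsdme, another gasdermin that forms pores once cut, had 2.32 ± 0.0957 CPM per kb in colon control and 23.0 ± 5.24 in ileum control. The per-kb values depend on exon length over all transcripts, which is 12742 bases for Gsdme and 2377 for Gsdmd. Without division by length, Gsdme had means of 29.6 CPM in colon control and 293 in ileum control. Gsdmd had 138 and 320 CPM in the same groups.

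Gsdmc2 had 117, 53.7 and 60.9 CPM in the 3 ileum control libraries and 353, 291 and 206 CPM in the 3 colon control libraries. Every colonic control library was above every ileal control library. In Slc39a8-IEC KO mice Gsdmc2 had 80.4, 188 and 78.7 CPM in ileum and 403, 353 and 313 CPM in colon, again without overlap. The group means were 3.67-fold apart in control mice and 3.08-fold apart in KO mice, the widest tissue difference among the members. The fitted log2 fold change of colon against ileum was 1.88 (SE 0.38) in control and 1.62 (SE 0.38) in KO mice.

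Gsdmc4 had 262, 95.7 and 98.3 CPM in ileum control and 490, 317 and 241 CPM in colon control. Replicate 1 of ileum control was above replicate 3 of colon control, so these groups overlapped. In KO mice the ileal values were 141, 338 and 138 CPM and the colonic values 422, 422 and 385 CPM, with no overlap. The log2 fold change between tissues was 1.20 (SE 0.45) in control and 0.99 (SE 0.45) in KO mice.

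Gsdmc3 had 69.6, 23.6 and 41.2 CPM in ileum control and 111, 95.9 and 63.6 CPM in colon control. Here too the highest ileal library was above the lowest colonic one. In KO mice it had 50.2, 66.8 and 33.3 CPM in ileum and 127, 105 and 104 CPM in colon, with no overlap. The log2 fold change was 1.01 (SE 0.36) in control and 1.16 (SE 0.36) in KO mice.

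The pseudogene Gsdmcl2 was low in every library. It had 4.13, 2.39 and 4.12 CPM in ileum control and 10.6, 9.40 and 6.69 CPM in colon control, with no overlap. In KO mice it had 6.92, 10.8 and 6.58 CPM in ileum and 13.1, 9.63 and 16.3 CPM in colon, where the groups overlapped. The log2 fold change between tissues was 1.32 (SE 0.31) in control and 0.68 (SE 0.30) in KO mice.

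**Figure D2:**
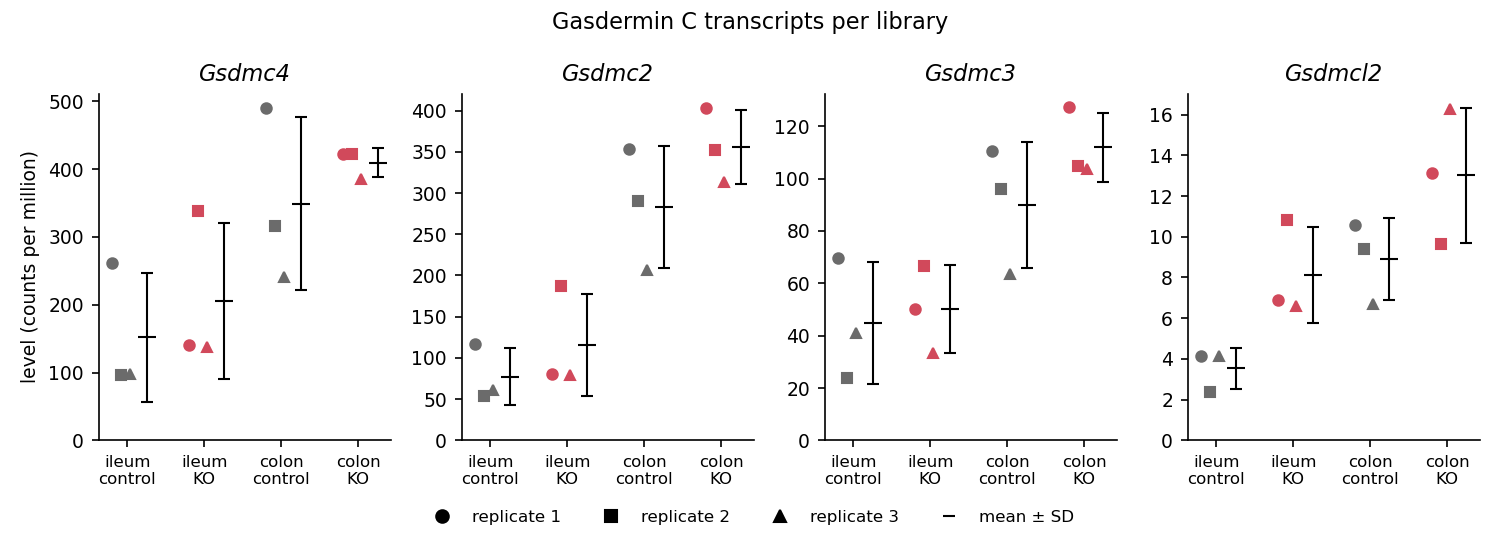
Level of the 4 members that passed the filter in CPM (vertical axes, each starting at 0) in the 4 groups. Points are libraries, shaped by replicate number, grey for control and red for KO, and bars are the mean and SD of 3 libraries. Replicate 1 of ileum control and replicate 2 of ileum KO are the high points of their groups for Gsdmc2, Gsdmc3 and Gsdmc4, with Gsdmc4 at 262 and 338 CPM.

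The fit in edgeR put 4 of the 4 members past an adjusted p of 0.1, with the higher level in colon, in control mice and 2 of 4, Gsdmc2 and Gsdmc3, in KO mice. Of all genes tested, 35.9% passed the threshold in control mice, 16.2% with the higher and 19.6% with the lower level in colon. In KO mice these shares were 37.1%, 17.1% and 20%. The members were chosen with these comparisons known, so these counts are no test of them. Colonic and ileal libraries did not overlap, with colon higher, for 2 members in control mice, against 20.3% of all genes, and for 3 members in KO mice, against 25.5%. The median log2 fold change of the 4 members was 1.26 in control and 1.08 in KO mice, and that of all genes was 0.016 and 0.014. For the members added together as 1 gene, which the division of reads does not touch, it was 1.40 and 1.23. The counts moved with single libraries. They fell to 2 in control mice without ileum control replicate 2 or 3, or colon control replicate 1 or 2. In KO mice they were 4 without ileum KO replicate 2 or ileum control replicate 3, and 1 without ileum KO replicate 3 or colon KO replicate 1.

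The proportions of the copies, which rest on the estimated division of shared reads, differed between the tissues. How often ratios of other genes separate the tissues in this way was not tested, nor was the part of the division of reads. Gsdmc2 made up 25.8% to 31.1% of the family's counts in the 6 ileal libraries and 36.6% to 41.7% in the 6 colonic libraries, with no overlap. The ratio of Gsdmc2 to Gsdmc4 was 0.446, 0.562 and 0.620 in ileum control and 0.570, 0.554 and 0.572 in ileum KO. In colon it was 0.721, 0.917 and 0.857 in control and 0.955, 0.836 and 0.814 in KO mice. All 6 colonic ratios were above all 6 ileal ratios. The ratio of Gsdmc2 to Gsdmc3 followed the same order, with 1.48 to 2.81 in ileum and 3.02 to 3.37 in colon. The ratio of Gsdmc3 to Gsdmc4, at 0.197 to 0.419 in ileum and 0.225 to 0.303 in colon, overlapped between tissues. Within a tissue, control and KO libraries overlapped in each of the 3 ratios.

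**Figure D3:**
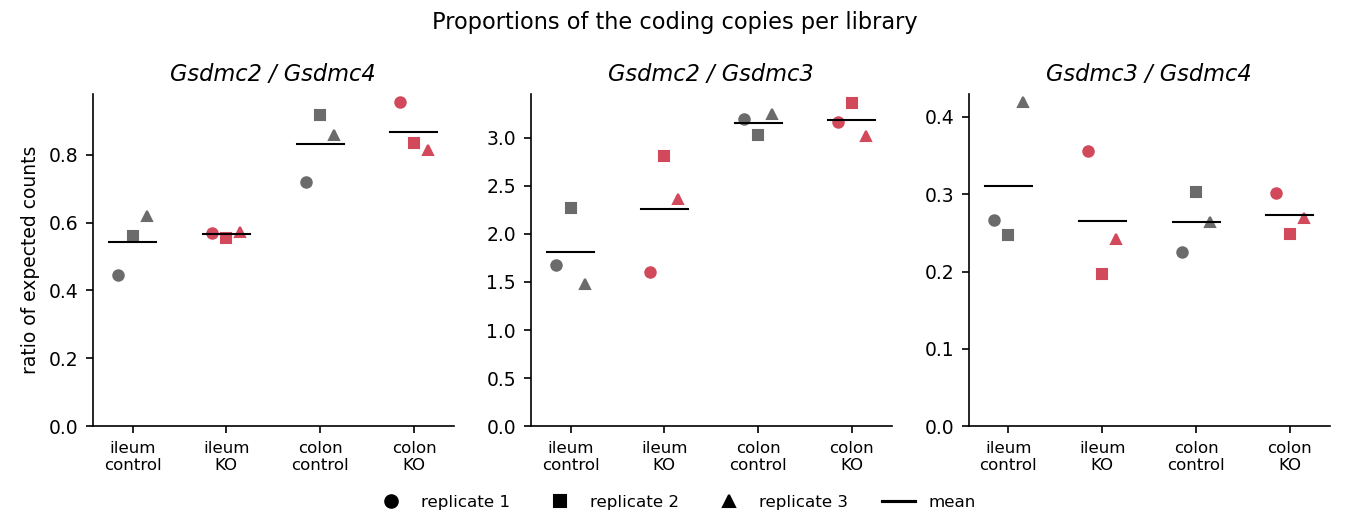
Ratios of expected counts between the coding copies in each library (vertical axes start at 0), with libraries as points and group means as lines. The 6 colonic libraries lie above the 6 ileal libraries for Gsdmc2 over Gsdmc4 and for Gsdmc2 over Gsdmc3, while Gsdmc3 over Gsdmc4 overlaps.

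The genotype comparison asked whether loss of Slc39a8 from the epithelium changed the mucosal transcriptome. The targeted gene was lower in the libraries labelled KO, with 5.22 to 8.39 CPM in ileum control against 2.62 to 4.35 in ileum KO, and 20.1 to 20.8 CPM in colon control against 7.35 to 11.5 in colon KO. Over both tissues the log2 fold change of KO against control was 0.46 (SE 0.25) for Gsdmc2, 0.24 (SE 0.24) for Gsdmc3 and 0.34 (SE 0.30) for Gsdmc4. It was 0.86 (SE 0.22) for Gsdmcl2. The median of the 4 was 0.40 and that of all genes was 0.0018. In edgeR 0 of 4 members were past the threshold, as were 0% of all genes. At an unadjusted p under 0.05 there were 641 genes, 3.87% of those tested, and in DESeq2 4 genes passed, of which 0 were members.

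In ileum Gsdmcl2 was the member with the largest log2 fold change by genotype, 1.19 (SE 0.31). Its lowest KO library (6.58 CPM) was above its highest control library (4.13 CPM), which held for 2.12% of all genes. The Gsdmcl2 values remain those of a low transcript, with 43 to 97 counts in ileum control and 116 to 277 in ileum KO. The log2 fold changes of Gsdmc2, Gsdmc3 and Gsdmc4 in ileum were 0.58 (SE 0.37), 0.16 (SE 0.36) and 0.44 (SE 0.44), and their control and KO libraries overlapped. Again 0 of 4 members and 0% of all genes passed the threshold in edgeR, with 252 genes (1.52%) at an unadjusted p under 0.05. In DESeq2 2 genes passed, and 0 of them were members.

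In colon the log2 fold changes were 0.33 (SE 0.37) for Gsdmc2, 0.31 (SE 0.35) for Gsdmc3, 0.23 (SE 0.44) for Gsdmc4 and 0.55 (SE 0.30) for Gsdmcl2. For none of the 4 was every KO library above every control library, which held for 6.98% of all genes. In edgeR 0 of 4 members and 0% of all genes passed, with 385 genes (2.33%) at an unadjusted p under 0.05, and in DESeq2 0 genes passed. The colonic effect minus the ileal effect was -0.64 (SE 0.43) for Gsdmcl2 and -0.25 to 0.15 for the 3 coding copies. For this difference 0 members and 0% of all genes passed in edgeR, 169 genes (1.02%) had an unadjusted p under 0.05, and 1 gene, not a member, passed in DESeq2. The tissue and genotype comparisons share libraries.

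**Figure D4:**
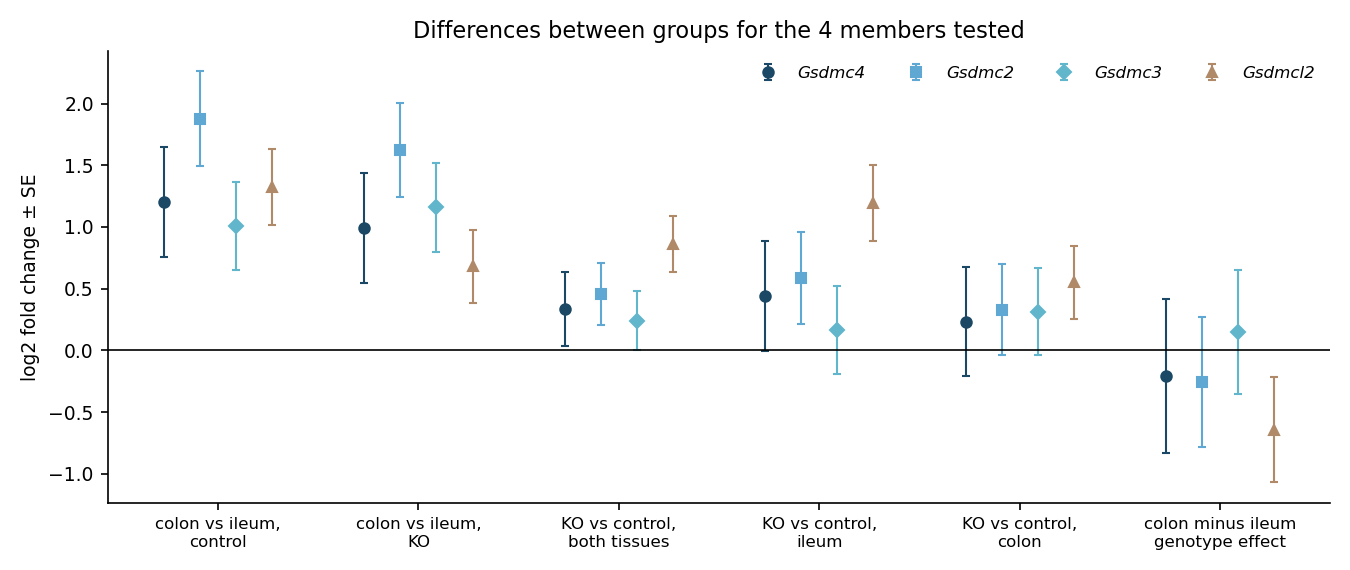
Fitted log2 fold changes (vertical axis) of the 4 members tested in the 6 comparisons (horizontal axis), as points with bars of 1 SE. Values are above 0 in both tissue comparisons, from 0.68 to 1.88, and nearer 0 for the coding copies in the genotype comparisons, where Gsdmcl2 in ileum is highest at 1.19.

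The ileal differences of the coding copies by genotype moved with single libraries, whereas that of Gsdmcl2 kept its direction. Replicate 2 of ileum KO held the highest ileal level of the family, with a sum over members of 603 CPM against 279 and 256 CPM in the other ileum KO libraries. Replicate 1 of ileum control had 452 CPM against 175 and 204 CPM in the other control libraries. Without ileum KO replicate 2, the log2 fold change in ileum was 0.05 for Gsdmc2, -0.10 for Gsdmc3, -0.12 for Gsdmc4 and 0.93 for Gsdmcl2. Without ileum control replicate 1 it was 1.01 for Gsdmc2, 0.63 for Gsdmc3, 1.09 for Gsdmc4 and 1.31 for Gsdmcl2. For Gsdmc3 and Gsdmc4 the sign thus turned with the library left out, and for Gsdmc2 the value ran from 0.05 to 1.01.

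Of 5 listed markers of surface colonocytes, 3 (Car1, Aqp8 and Slc26a3) were also at their ileal highest in that KO library. Car1, a carbonic anhydrase abundant in surface colonocytes, had 144, 13.8 and 3.40 CPM in ileum control and 4.47, 2632 and 27.5 CPM in ileum KO, where replicate 2 reached 15.1% of the mean of the colonic KO libraries. Aqp8, a water channel of surface colonocytes, had 67.3 CPM in ileum KO replicate 2, 87.1% of the colonic KO mean, and 0 to 0.358 CPM in the other 5 ileal libraries. The summed gasdermin C members of that library were at 67.7% of their colonic KO mean. Slc26a3, a chloride exchanger, reached 266 CPM in ileum KO, against 139 to 207 CPM in ileum control. Car4, another carbonic anhydrase, was highest in ileum control, at 436 CPM, and so was Ceacam20, at 280 CPM, which was also higher on average in ileum than in colon. The sum of the 5 markers, of which Car1 is the largest part, was 3332 CPM in ileum KO replicate 2, 353 to 889 CPM in the other ileal libraries and 15974 to 28476 CPM in colon, with Aqp8 the marker at 0 in ileum control. The ileal libraries highest and next highest in Car1 were also the highest and next highest in the summed gasdermin C members. Their part in the gasdermin C values was not tested. The ratio of Gsdmc2 to Gsdmc4 in ileum KO replicate 2, 0.554, lay within the range of the other ileal libraries. Its ratio of Gsdmc2 to Gsdmc3, 2.81, was the highest of the 6 ileal libraries.

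**Figure D5:**
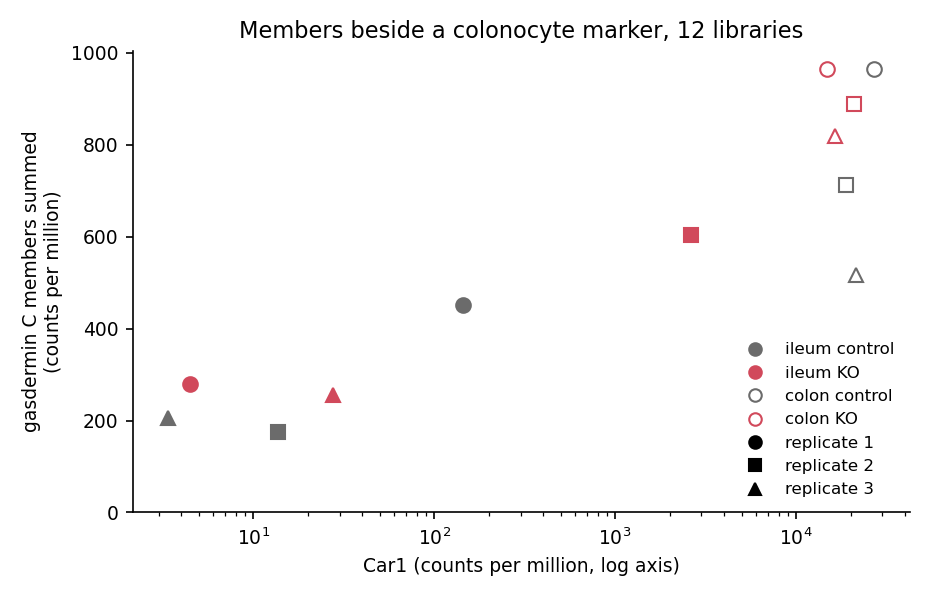
Sum of the gasdermin C members in CPM (vertical axis) against Car1 in CPM (horizontal axis, log scale) in 12 libraries, filled for ileum and open for colon, red for KO and grey for control. Replicate 2 of ileum KO stands at 2632 CPM of Car1, between the other ileal libraries and the colonic ones on that axis. On the vertical axis it stands at 603 CPM of gasdermin C, above colon control replicate 3 at 517 CPM.

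The tissue labels were borne out by the markers. The 5 ileal enterocyte markers summed to 11535 to 16956 CPM in ileum and 1240 to 2271 CPM in colon. Epithelial markers were present in all libraries, at 15578 to 20273 CPM in ileum and 7794 to 9024 CPM in colon, with no overlap. The part of that difference in the gasdermin C values was not tested. Smooth muscle markers were at 31.6 CPM in ileum control replicate 3 and 18.4 CPM in ileum KO replicate 1, against 1646 to 3475 CPM elsewhere. Without those 2 libraries the log2 fold changes between tissues in control mice were 1.71 for Gsdmc2, 0.93 for Gsdmc3, 0.95 for Gsdmc4 and 1.44 for Gsdmcl2. Markers of squamous epithelium, which also expresses gasdermins, summed to 2.78 to 6.62 CPM, with Krt5 and Trp63 at 0 in ileum control and Krt4 at 0 in colon. Tuft cell markers summed to 19.4 to 51.2 CPM, with overlapping ranges in the 4 groups.

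The 4 members varied together from library to library. After the mean of each group was subtracted, Pearson's r of log2 CPM over the 12 libraries was 0.97 between Gsdmc2 and Gsdmc4, 0.87 between Gsdmc2 and Gsdmc3 and 0.85 between Gsdmc3 and Gsdmc4. It was 0.65 to 0.77 between Gsdmcl2 and the coding copies. These values share libraries, and the coding copies share reads. The other genes most like the summed members after that subtraction were Polr3k (r = 0.97), which encodes a subunit of RNA polymerase III, Gm45501, Rnmt, which caps mRNA, Cdc16, a subunit of the anaphase-promoting complex, and 4933407K13Rik (r = 0.96). Gsdmc3 (r = 0.90) and Gsdmcl2 (r = 0.70) followed the sum, of which they are part, less closely than these genes did. For Gsdmc2 and Gsdmc4 r with the sum was 0.99. Such joint variation was thus not particular to the cluster. Without the subtraction the other genes most alike were Eya2 (r = 0.95), Gm7579, Gm15401, Hao2 and Fgf12 (r = 0.94). Of these Hao2, a peroxisomal hydroxyacid oxidase, was the most abundant, with 10.5 CPM in ileum control and 197 CPM in colon control. Among ileal libraries Hao2 was highest in KO replicate 2, at 36.3 CPM. The sum by which it was picked is highest there as well, so this is no separate observation. Gm45501, Eya2 and Gm7579 were low, with group means of at most 0.558, 0.868 and 1.02 CPM.

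The genes around the cluster differed among themselves. Of 18 other genes within 500 kb, 3 passed the filter. Gsdmcl-ps was higher in colon of control mice, with a log2 fold change of 3.36 (SE 0.85, edgeR adjusted p = 0.012), on 0 to 3 counts per ileal control library and 13 to 19 per colonic one. In KO mice it was at 1.64 (SE 0.74, edgeR adjusted p = 0.12) and did not pass, so 1 of the 3 neighbours, Fam49b, passed there. Fam49b was lower in colon of control mice, with a log2 fold change of -0.84 (SE 0.16, edgeR adjusted p = 0.0027). In KO mice it was at -0.76 (SE 0.16, edgeR adjusted p = 0.0049). Asap1 did not pass, at 0.15 (SE 0.31) in control and -0.14 (SE 0.31) in KO mice. By genotype 0 of the 3 passed in edgeR.

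Gsdmd and Gsdme, the other gasdermins with appreciable counts, were lower in colon than in ileum. Of 6 other gasdermins listed, 3 were tested. Gsdme was lower in colon of control mice, with a log2 fold change of -3.31 (SE 0.18, edgeR adjusted p = 3.2e-07), as was Gsdmd, with -1.21 (SE 0.33, adjusted p = 0.019). In KO mice Gsdmd and Gsdme were lower in colon as well, and Gsdma, at 0.404 CPM per kb in ileum and 0.943 in colon, was higher, with a log2 fold change of 1.21 (SE 0.34, edgeR adjusted p = 0.021). Gsdma2, Gsdma3 and Pjvk did not pass the filter. The median of the 3 tested was -1.21 in control mice.

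Among proteases that cut gasdermins, the named genes differed in direction between the tissues. Casp6 was higher in colon of control mice, with a log2 fold change of 1.38 (SE 0.18, edgeR adjusted p = 0.00015). Casp8, the caspase that is known to cut gasdermin C, was lower, with -1.25 (SE 0.22, edgeR adjusted p = 0.0013). The granzymes of cytotoxic lymphocytes were lower too, Gzmb at -2.88 (SE 0.80, adjusted p = 0.019) and Gzma at -2.71 (SE 0.81, adjusted p = 0.027) in edgeR. Casp4, which senses lipopolysaccharide, was lower at -1.46 (SE 0.56, edgeR adjusted p = 0.074). In KO mice Casp6 was higher in colon, with 1.19 (SE 0.18, edgeR adjusted p = 0.00043), and Casp8 was lower, with -1.33 (SE 0.22, adjusted p = 0.00091). Gzma and Gzmb were lower in colon of KO mice as well, the latter with a log2 fold change of -2.47 (SE 0.78, edgeR adjusted p = 0.035). Leukocyte markers summed to 182 to 950 CPM in ileum and 210 to 442 CPM in colon, and their part in the granzyme values was not tested.

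Of 9 inflammasome and pyroptosis genes, 8 were tested. In control mice 2 were higher and 3 lower in colon, beside 16.2% and 19.6% of all genes. Aim2, a sensor of cytosolic DNA, was higher with a log2 fold change of 1.99 (SE 0.30, edgeR adjusted p = 0.00048), as was Ninj1, which ruptures the membrane of dying cells, with 0.91 (SE 0.16, adjusted p = 0.0016). Il1b, a cytokine released through gasdermin pores, was lower with -2.54 (SE 0.82, edgeR adjusted p = 0.038). Its counts were low, 10 to 83 per ileal control library and 5 to 9 per colonic one. Nlrc4, an inflammasome sensor, and Pycard, its adaptor, were lower with -1.13 (SE 0.12, adjusted p = 4.8e-05) and -0.64 (SE 0.22, adjusted p = 0.052) in edgeR. In KO mice 2 were higher (Aim2, Ninj1) and 2 lower (Nlrc4, Pycard), beside 17.1% and 20% of all genes. Il1b did not pass there, at -0.99 (SE 0.77, edgeR adjusted p = 0.36).

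Among the genes of the type 2 cytokine pathway, which is known to induce gasdermin C, none of those tested passed as higher in colon. The cytokines Il4, Il13, Il25 and Tslp did not pass the filter, with at most 11 counts in any library. Of 13 genes in the pathway 8 were tested, and in control mice 0 passed as higher and 4 as lower in colon, beside 16.2% and 19.6% of all genes. Il33, an alarmin, had 5.11 CPM in ileum control and 7.20 in colon control, with a log2 fold change of 0.50 (SE 0.46), and did not pass. The receptor chain Il4ra was lower with a log2 fold change of -2.12 (SE 0.34, edgeR adjusted p = 0.0008), and its partners Il2rg and Il13ra1 with -1.47 (SE 0.35, adjusted p = 0.0088) and -0.83 (SE 0.22, adjusted p = 0.015). The kinase Jak1 was lower with -0.40 (SE 0.099, edgeR adjusted p = 0.011). In KO mice Tyk2 joined these 4, at -0.46 (SE 0.099, edgeR adjusted p = 0.0048), and 0 passed as higher. The median log2 fold change of the 8 was -0.29 in control mice, beside 0.016 for all genes.

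Of 10 epithelial genes that rise in type 2 immunity, all tested, 0 were higher and 3 lower in colon in each genotype. Of all genes, 16.2% were higher and 19.6% lower in control mice, and 17.1% and 20% in KO mice. Clca1, a protein of goblet cell mucus, was lower in control mice with a log2 fold change of -0.85 (SE 0.25, edgeR adjusted p = 0.025). Pla2g4c, a phospholipase, was lower with -4.31 (SE 0.83, edgeR adjusted p = 0.0025), from a mean of 22.5 CPM in ileum control to 1.13 in colon control. Itln1, a lectin of Paneth and goblet cells, was lower with -9.26 (SE 0.85, edgeR adjusted p = 1.2e-05), from 1239 to 2.02 CPM. The 5 Paneth cell markers, of which Itln1 is 1, summed to 4549 to 13811 CPM in ileum control and 6.87 to 12.9 CPM in colon control, with none at 0 in either group, and their part in the Itln1 value was not tested. Retnlb, a goblet cell peptide that did not pass the test, had 0.213 to 10.2 CPM in ileum control and 48.3 to 50.6 CPM in colon control, and in KO mice 0 to 10.6 CPM in ileum and 3.06 to 101 CPM in colon. Dclk1, a tuft cell kinase, had means of 9.17 CPM in ileum control and 15.7 CPM in colon control and did not pass. By genotype 0 genes of these 5 lists passed in edgeR in either tissue or over both.

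The RefSeq promoter table used here, with windows from 250 bases before to 50 after a start site, was matched by Gsdmc3 among the members. Its 250 bases before the start site are shown because the copies moved together between libraries, with the TATA box in capitals (chr15:63878559-63878808, minus strand, GRCm38.p6):
Gsdmc3: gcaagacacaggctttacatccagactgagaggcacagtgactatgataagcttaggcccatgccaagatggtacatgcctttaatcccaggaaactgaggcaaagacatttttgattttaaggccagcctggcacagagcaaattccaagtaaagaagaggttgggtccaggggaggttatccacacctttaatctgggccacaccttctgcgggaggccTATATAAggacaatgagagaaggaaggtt

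The match to TATANAA began 29 bases before the start site, and 11.348% of 32851 promoter windows held that motif on either strand. The motif of Stat6 sites, TTC and GAA with any 4 bases between them, and that of other Stat sites, TTC and GAA with any 3 bases between them, were not in the window of Gsdmc3. They were in 6.953% and 8.298% of all windows, again on either strand, and a given TTC cannot match both with the same GAA. The absence says only that these letters are not in this window.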

How the data were processed

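RNA of ileal and colonic mucosa was primed with oligo-dT, and libraries were sequenced in pairs of 150 bases, per the study's methods. The authors deposited 1 table of expected counts, which need not be whole and are not normalized. The labels name STAR and mm10. The study's reporting summary states that uniquely mapped reads were kept, that duplicates were removed with UMI-tools and that FeatureCounts made the counts, but no source used here names the tool behind the expected counts. All 92 spike-in rows held 0 counts and were left out.

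Expected counts were rounded. In edgeR 4.0.16 (R 4.3.3), filterByExpr kept 16558 genes, TMM factors were computed, and glmQLFTest gave p-values adjusted by Benjamini-Hochberg, with a threshold of 0.1. The 4 groups shared 1 estimate of the spread, and genotype over both tissues had tissue as an additive term. CPM was scaled with the TMM factors, and a prior count of 2 was used for log2 CPM. DESeq2 1.42.0 was an alternative. Coding sequences were aligned with MAFFT 7.526, since protein sequences were not used here. Coordinates and transcripts are from GENCODE M21 (GRCm38), which names 53620 of 53715 identifiers. The edgeR fit of genotype over both tissues was checked on simulated data that held no tissue difference. The other fits were not checked in this way.

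Depth was 16749138 to 27903083 expected counts per library. Whether 1 mouse gave both an ileal and a colonic library is not in the labels, and the fits took all libraries as independent. The members and gene lists were chosen with earlier results of these data known. Named genes were all members, at most the 4 genes of largest change past the threshold per list and comparison, the genes within 500 kb that were tested, and the 5 most alike in pattern by each measure. Casp6, Pycard, Tyk2, Retnlb and Dclk1 were named after their values were seen. Some results of the protease list are not reported here.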

Additional observations from a re-analysis of the deposited data

How the results depend on the processing

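The counts of members past the threshold describe genes chosen on these values and are no test of them. Between tissues, the count was 4 in control mice, and 2 without the 2 ileal libraries of little muscle RNA. Leaving out 1 library at a time gave 2 to 4. In KO mice the count was 2, and it was 4 with DESeq2, with library size only, with upper-quartile factors and with only the libraries compared. Leaving out 1 library gave 1 to 4 there. The cause was not tested. All log2 fold changes between tissues stayed above 0, from 0.49 to 2.30. The count was 0 in the genotype comparisons under every alternative run. Gsdmcl2 stayed between 0.93 and 1.42 in ileum, while Gsdmc4 ranged from -0.12 to 1.09.

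With the replicate number as a block (replicate block), the counts were 4 between tissues in control mice, 2 in KO mice and 0 by genotype. The correlation of same-numbered libraries was over 0.1 in 5 of 18 pairs and ran from -0.69 to 0.40. Both extremes set ileum control against ileum KO, which cannot be 1 mouse. For ileum and colon of 1 genotype, which could be 1 mouse, it was -0.053, 0.165 and -0.08 in control mice. In KO mice it was 0.192, 0.051 and 0.251. So few pairs cannot tell whether the numbers pair the samples.

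Windows of 75 bases in place of 150 raised the share found in another member to 39.317% for Gsdmc2, 35.847% for Gsdmc3 and 28.493% for Gsdmc4. With library size only, the median of all genes shifted between tissues to 0.24 in control and 0.29 in KO mice, and the genes past the threshold went from 2689 higher and 3251 lower in colon to 4156 and 2102 in control mice, and from 2837 and 3312 to 4637 and 1908 in KO mice. Depth limits Gsdmc and Gsdmcl1, which had at most 1 count in any library.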
